A study of Homo sapiens with 6 samples.

Results

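The miR-103/miR-107 family consists of small RNAs whose hairpins lie within introns of the PANK genes, those of miR-103b on the opposite strand. The family was followed here in exosomes, the small vesicles that cells release, from H1299 cells, an established human line of non-small cell lung cancer. The family was taken as the entries named hsa-miR-103a-3p, hsa-miR-103b and hsa-miR-107 in the study's full count table, which makes 3 of 1247 entries. The prefix is left out below. One group of cells stably carried a short hairpin RNA against WDR4 (shWDR4), and the other a control short hairpin RNA. WDR4 is the partner of METTL1 in the enzyme that adds 7-methylguanosine to RNA. All cells had the label wild type for genotype and spent 48 hours in medium freed of exosomes. The study asked what part WDR4 has in loading miRNAs into exosomes. Each group had 3 libraries, and the deposited counts joined them into 1 column per group.

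The shWDR4 column held 552913 counts and the control column 1020282. With 1 pooled value per group there is no spread between repeats, so no p-value is given and each difference is one between these columns. Intervals are exact 95% intervals of the read counts. They leave out all other error, and copies made by amplification are not separate molecules. In bulk exosome RNA, fewer vesicles that carry a miRNA cannot be told apart from less of it per vesicle, and no library was of whole cells. The WDR4 transcript is not a miRNA entry, so the knockdown was not checked. The labels do not say which hairpin sequences were used or how many clones made up each stable line.

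A miRNA guides Argonaute to messenger RNAs that pair with its seed, bases 2 to 8 from its 5′ end. The PANK genes that host this family encode pantothenate kinases, which carry out the first step of coenzyme A synthesis. Thus miR-103a-3p and miR-107 are made from the same primary transcripts as metabolic enzymes. Reported targets of miR-103 and miR-107 include DICER1, the nuclease that makes mature miRNAs, and CAV1, a membrane protein through which the family affects insulin sensitivity in mouse fat and liver. In serum work miR-103a-3p is often used as a reference for other miRNAs.

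The mature sequences show why the entries have to be read together. They are from RefSeq on GRCh38.p14, written 5′ to 3′ with the seed in capitals, and all 3 members matched by name.
miR-103a-3p: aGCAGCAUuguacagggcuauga
miR-107: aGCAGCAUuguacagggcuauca
miR-103b: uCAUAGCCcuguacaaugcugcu
All are 23 bases long with a GC content of 47.8%. Counted from the 5′ end of miR-103a-3p, miR-107 differs from it by G22C alone, so the first 21 bases and the seed are the same. A read that stops before that base cannot be given to one of them, and the labels do not say how such reads were divided. The other entry, miR-103b, is the exact reverse complement of miR-103a-3p over its whole length and has another seed.

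The hairpins lie on 3 chromosomes. On the minus strand of chromosome 5 the MIR103A1 hairpin spans 168560896 to 168560973, and on the plus strand of chromosome 20 the MIR103A2 hairpin spans 3917494 to 3917571. On the minus strand of chromosome 10 the MIR107 hairpin spans 89592747 to 89592827. In GENCODE release 29 on GRCh38 they fall in introns of PANK3, PANK2 and PANK1, in that order, on the strand of the host gene and outside its annotated exons. The 3 hairpins are shown with the mature strand in capitals, because both MIR103A hairpins give the same mature miRNA and the counts cannot say which locus a read came from.
MIR103A1: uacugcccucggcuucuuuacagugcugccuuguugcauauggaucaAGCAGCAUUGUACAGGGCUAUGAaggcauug
MIR103A2: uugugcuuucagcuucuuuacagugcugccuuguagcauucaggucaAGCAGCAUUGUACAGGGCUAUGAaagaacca
MIR107: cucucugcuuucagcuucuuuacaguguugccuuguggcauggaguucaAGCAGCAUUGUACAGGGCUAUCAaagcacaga
The miR-103b hairpins MIR103B1 and MIR103B2 lie on the opposite strands of the same places, at 168560904 to 168560965 on chromosome 5 and 3917502 to 3917563 on chromosome 20. They are antisense to PANK3 and PANK2. Neither annotated 5p arm of the MIR103A hairpins, miR-103a-1-5p or miR-103a-2-5p, was among the 1247 entries.

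Both miRNAs of the family made up a smaller part of the shWDR4 column than of the control column. The main product, miR-103a-3p, had 1644 counts in shWDR4 and 6466 in control. Scaled to a column total of 1000000 (CPM), this was 2973 CPM in shWDR4 and 6337 CPM in control, or 2.13-fold lower in shWDR4 (2.02 to 2.25). By count it stood 42nd among all entries in shWDR4 and 27th in control, each time level with miR-103b.

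The less abundant miR-107 had 213 counts, or 385 CPM, in shWDR4 and 882 counts, or 864 CPM, in control. It was 2.24-fold lower in shWDR4 (1.93 to 2.62). The interval of miR-107 includes 2-fold and that of miR-103a-3p just excludes it, at the depth of these columns.

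The entry miR-103b had the same counts as miR-103a-3p in both columns, 1644 in shWDR4 and 6466 in control. Its value therefore adds no measurement, and the reads are counted once below. Whether any of these reads came from the miR-103b strand cannot be told from the counts. The same held for every other pair of exact opposites among the 1115 entries with a RefSeq sequence. Among these entries, 6 pairs have mature sequences that are exact reverse complements. All 6 had identical counts in both columns, and 4 of them had at least 50 counts. These include miR-423-5p with miR-3184-3p, at 16692 counts in shWDR4 and 52349 in control, and miR-7-5p with miR-3529-3p, at 1452 in shWDR4 and 7109 in control. Overlapping pairs on opposite strands that are not exact complements differed at that depth: with at least 50 counts there were 2, and neither had identical counts. In one of them miR-24-3p had 520 counts in shWDR4 and 1709 in control, and miR-3074-5p, which overlaps it on the other strand, had 120 in shWDR4 and 452 in control. Below 50 counts, miR-3130-3p and miR-3130-5p had identical counts, 4 in shWDR4 and 0 in control, and miR-642a-5p and miR-642b-3p did not.

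With the shared reads counted once, the sum of miR-103a-3p and miR-107 was 1857 counts in shWDR4 and 7348 in control. The family held 0.336% of the shWDR4 counts (0.321 to 0.351) and 0.7202% of the control counts (0.704 to 0.737), a 2.14-fold lower share in shWDR4 (2.04 to 2.26). Adding all 3 entries would raise the shares to 0.633% in shWDR4 and 1.35% in control and leave the fold at 2.14 (2.06 to 2.22).

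**Figure D1:**
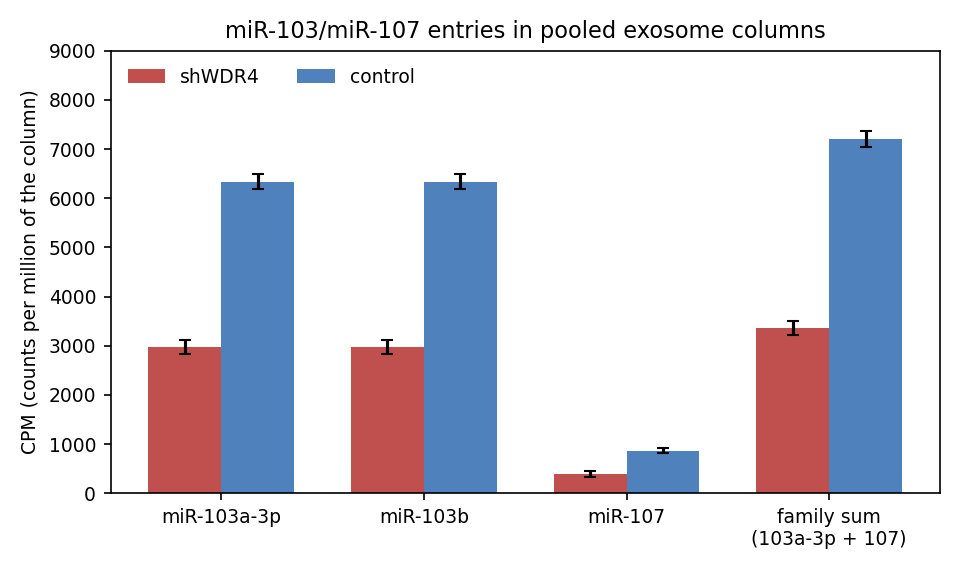
Counts scaled to a column total of 1000000 (CPM, vertical axis) of the miR-103/miR-107 entries and of their sum in the pooled shWDR4 and control columns, with exact 95% counting intervals. The bars of miR-103a-3p and miR-103b are the same reads, at 2973 CPM in shWDR4 and 6337 CPM in control, and miR-107 stands at 385 CPM in shWDR4 and 864 CPM in control.

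No difference beyond counting error was seen between the members in how far they were below control. The share of miR-107 in the family sum was 11.5% in shWDR4 (10.1 to 13.01) and 12.003% in control (11.3 to 12.8). The ratio of miR-107 to miR-103a-3p was 0.1296 in shWDR4 and 0.136 in control. Its fold between the columns was 0.9498 with an interval of 0.806 to 1.12, which includes no difference and needs no scaling of the columns. A difference between the members of up to the bounds of that interval could not be seen at this depth. Reads too short to be given to one member may have entered either count.

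The size rule used here was a 2-fold difference among the 349 entries whose 2 column counts summed to at least 50. By that rule all 3 entries, which are 2 separate measurements, were lower in shWDR4. Of the 349 entries, 31.5% were at least 2-fold lower and 26.1% at least 2-fold higher. Among the 112 entries with at least 1000 counts, a depth that both miR-103a-3p and miR-107 reached, 38.4% were at least 2-fold lower. A 2-fold lower value was thus common in this comparison, and the count of members by itself sets the family apart from no other entries. The authors' deposited table marked all 3 entries as lower in shWDR4, as it did 10.8% of all 1247 entries. Its normalized log2 fold, which runs as control over shWDR4, was 1.09 for miR-103a-3p and 1.17 for miR-107 in the authors' deposited table.

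Relative to the typical entry the family was lower by a smaller factor. The median log2 fold of the 349 entries, as shWDR4 over control, was -0.37, against -1.10 for the family sum. The family sum was therefore 1.66-fold below the median entry, and 100 of the 349 entries, or 28.7%, had a still lower fold. Both of these values are the same under any scaling of the columns. Among the 112 entries with at least 1000 counts, the median log2 fold with column totals was -0.65, closer to that of the family sum.

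**Figure D2:**
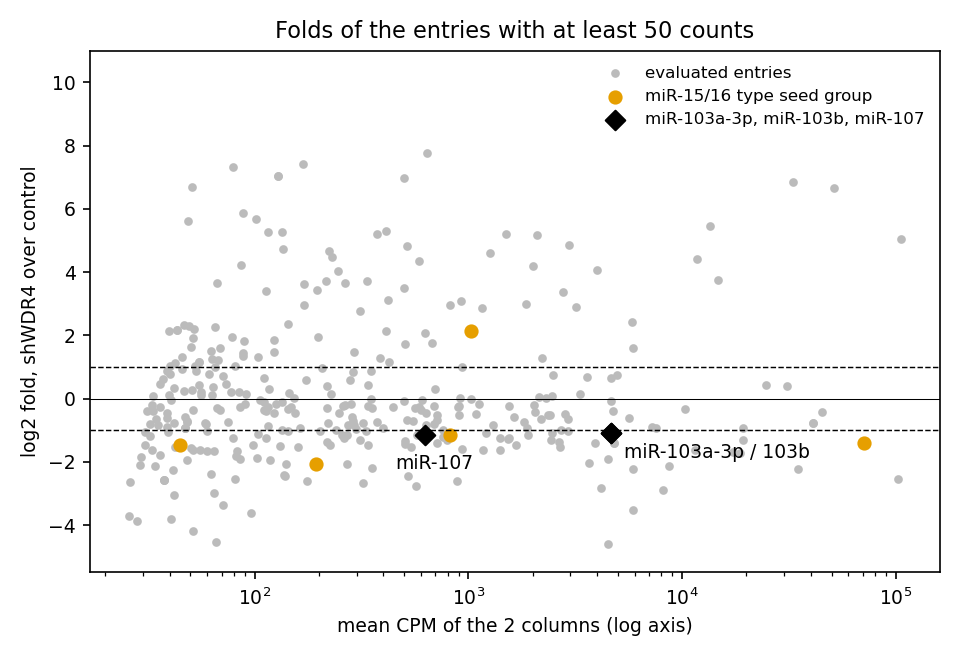
Log2 fold (shWDR4 over control, vertical axis) against the mean CPM of the columns (log axis) for the 349 evaluated entries, with 3 counts in place of a 0 and dashed lines at 2-fold. Circles in colour are the evaluated entries that share the core seed described further on, grey points are the rest, and the miR-103/miR-107 entries (diamonds) lie just below the lower dashed line, at -1.09 for miR-103a-3p and -1.17 for miR-107, among many other entries.

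The position of the family close to 2-fold made the call depend on how the columns were scaled. Leaving miR-3960, the most abundant entry of the shWDR4 column, out of the totals shifted every log2 fold by 0.32. That entry held 205546 CPM in shWDR4 and 6172 CPM in control. The entry miR-6126 held 102172 CPM in shWDR4 and 1002 CPM in control, and miR-7704 held 65645 CPM in shWDR4 and 565 CPM in control. With the trimmed mean of M values the family sum was 1.92-fold lower in shWDR4 (1.82 to 2.02), and with the median ratio 1.99-fold (1.89 to 2.09), both under the size rule. The members split there: miR-103a-3p was 1.91-fold and 1.97-fold lower, while miR-107 was 2.01-fold (1.73 to 2.34) and 2.08-fold (1.79 to 2.43) lower and kept the call. Without miR-3960 the family sum was 1.71-fold lower (1.63 to 1.805), and without miR-3960, miR-6126 and miR-7704 it was 1.35-fold lower (1.29 to 1.43). Upper-quartile scaling gave 2.79-fold (2.65 to 2.94). The family was lower in shWDR4 under each of the 7 scalings tried.

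**Figure D3:**
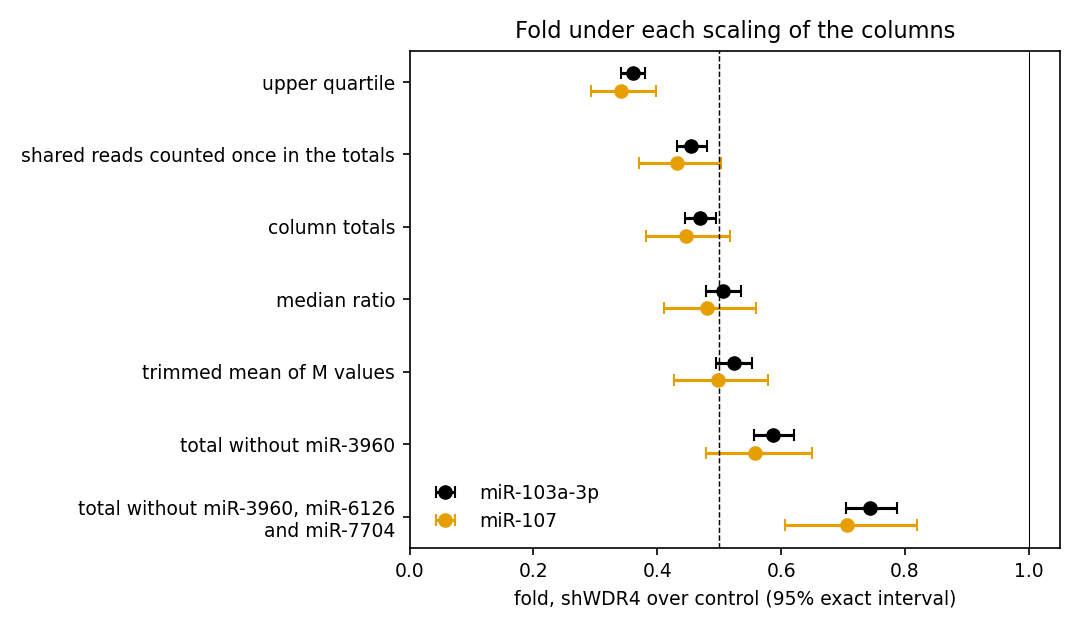
Fold of miR-103a-3p and miR-107 (shWDR4 over control, linear axis, exact 95% counting intervals) under 7 scalings of the columns, with a dashed line at a 2-fold lower value and a solid line at no difference. All folds lie below 1, and those of miR-103a-3p run between 0.3602 with the upper quartile and 0.743 without the 3 large entries.

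Ratios between miRNAs of the same column need no scaling, so the family was also set against 7 miRNAs used as references in serum panels. The family sum was lower in shWDR4 relative to 5 of them. Relative to miR-191-5p, the ratio was 0.0949 in shWDR4 and 0.269 in control, 2.83-fold lower in shWDR4 (2.68 to 2.99). Relative to miR-425-5p it was 2.37-fold lower (1.89 to 2.98), and relative to miR-93-5p, from the MCM7 gene, 1.58-fold lower (1.499 to 1.67). Smaller gaps stood against miR-23a-3p, at 1.33-fold (1.15 to 1.53), and miR-423-5p, at 1.26-fold (1.195 to 1.33).

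The order was the other way for the remaining 2 miRNAs. Relative to miR-16-5p, which restrains the cell cycle, the ratio of the family was 0.0864 in shWDR4 and 0.0694 in control, 1.24-fold higher in shWDR4 (1.18 to 1.31). Relative to let-7i-5p, of the growth-restraining let-7 family, it was 1.91-fold higher (1.74 to 2.09). The 7 references themselves did not share a direction: 5 were lower and 2 higher in shWDR4 with scaling to the totals. Over all evaluated entries 60.5% were lower by any size. The median log2 fold of the references was -0.69, against -0.37 over all evaluated entries and -0.65 over those with at least 1000 counts. The 2 higher were miR-191-5p, with a fold of 1.32 (1.298 to 1.35), and miR-425-5p, with 1.11 (0.885 to 1.38). The interval of miR-425-5p includes no difference. The split into lower and higher was 6 and 1 with the upper quartile and 4 and 3 without the 3 large entries.

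**Figure D4:**
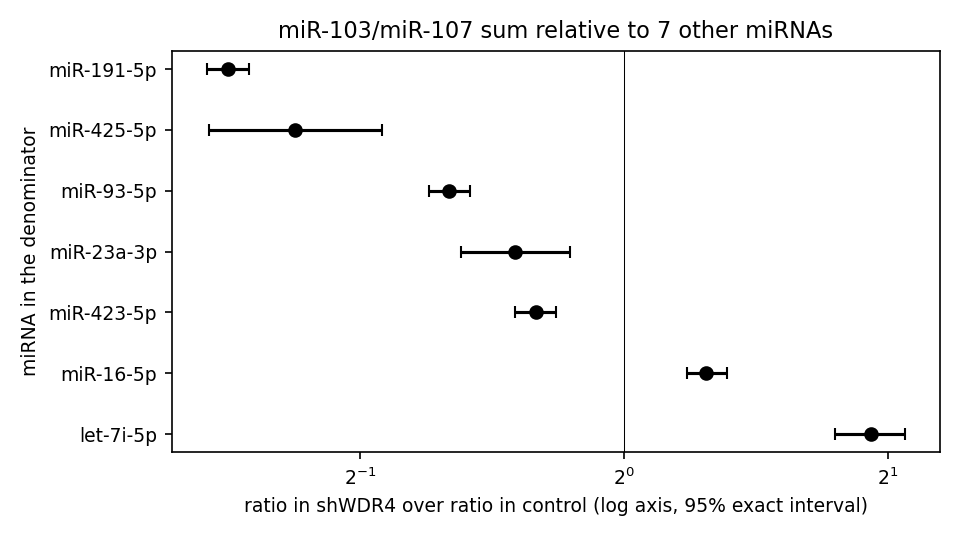
Ratio of the miR-103/miR-107 sum to each of 7 other miRNAs, given as the ratio in shWDR4 over the ratio in control (log axis, exact 95% counting intervals, solid line at no difference). The points run between 0.353 for miR-191-5p and 1.91 for let-7i-5p, and no interval crosses the line.

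The seed of miR-103/miR-107 shares a core with that of the miR-15/16 miRNAs, shifted by 1 base. Members of this wider group can pair with overlapping sets of sites, and miR-15 and miR-16 are known for repressing cyclins and BCL2. The group was taken as all entries with the letters AGCAGC, read on the mature strand only, within bases 1 to 8. That held for 10 of the 1115 entries with a RefSeq sequence, or 0.897%, and for 13 of 2370 mature sequences in RefSeq, or 0.549%. Those with at least 50 counts, apart from miR-103a-3p and miR-107, are shown with the seed in capitals.
miR-16-5p: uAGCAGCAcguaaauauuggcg
miR-15b-5p: uAGCAGCAcaucaugguuuaca
miR-15a-5p: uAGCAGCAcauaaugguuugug
miR-424-5p: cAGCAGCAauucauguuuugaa
miR-503-5p: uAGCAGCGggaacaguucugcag
In miR-103a-3p and miR-107 the core begins at base 1, and in these it begins at base 2, so the 7-base seed is GCAGCAU in that pair and AGCAGCA in all of these but miR-503-5p.

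Of the 7 evaluated entries with this core, 6 were lower and 1 was higher in shWDR4, with a median log2 fold of -1.17. Over all evaluated entries 60.5% were lower by any size, with a median of -0.37. Apart from miR-103a-3p and miR-107, 4 of 5 were lower and 1 was higher, with a median of -1.42. The directions were the same under all 7 scalings, but the sizes were not. At least 2-fold lower were 6 of the 7 with column totals, 5 with the median ratio, 4 with the trimmed mean of M values, 3 without miR-3960 and 1 without the 3 large entries. Under the same scalings, in that order, 110, 98, 93, 79 and 49 of all 349 evaluated entries were at least 2-fold lower. The most abundant of the 7, miR-16-5p, had 38892 CPM in shWDR4 and 103757 CPM in control, 2.67-fold lower (2.63 to 2.71). Its cluster partner miR-15b-5p had 512 CPM in shWDR4 and 1126 CPM in control, 2.2002-fold lower (1.93 to 2.51), an interval that overlaps those of miR-103a-3p and miR-107. The exception, miR-503-5p, had 1677 CPM in shWDR4 and 381 CPM in control, 4.397-fold higher (3.902 to 4.96). It shares the core but neither 7-base seed, since its seed reads AGCAGCG. Its GC content was also the highest of the 7, at 56.5%, against 36.4% to 47.8% in the 6 lower entries. The part of either trait in its direction was not tested.

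Among the 6 lower entries, miR-103a-3p, miR-15b-5p and miR-107 had the smallest differences from control. The lowest fold was that of miR-424-5p, which lies beside miR-503 on chromosome X, with 41 counts in shWDR4 and 320 in control, 4.23-fold lower (3.05 to 6.01). For miR-15a-5p, with 13 counts in shWDR4 and 67 in control, the fold of 2.79 had an interval of 1.53 to 5.52. The other 3 entries had too few counts to be evaluated. These were miR-195-5p with 8 counts in shWDR4 and 24 in control, miR-497-5p with 2 in shWDR4 and 9 in control, and miR-646 with 2 in shWDR4 and 0 in control. All sequences of the group together held 44559 CPM in shWDR4 and 112878 CPM in control, and most of this was miR-16-5p.

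**Figure D5:**
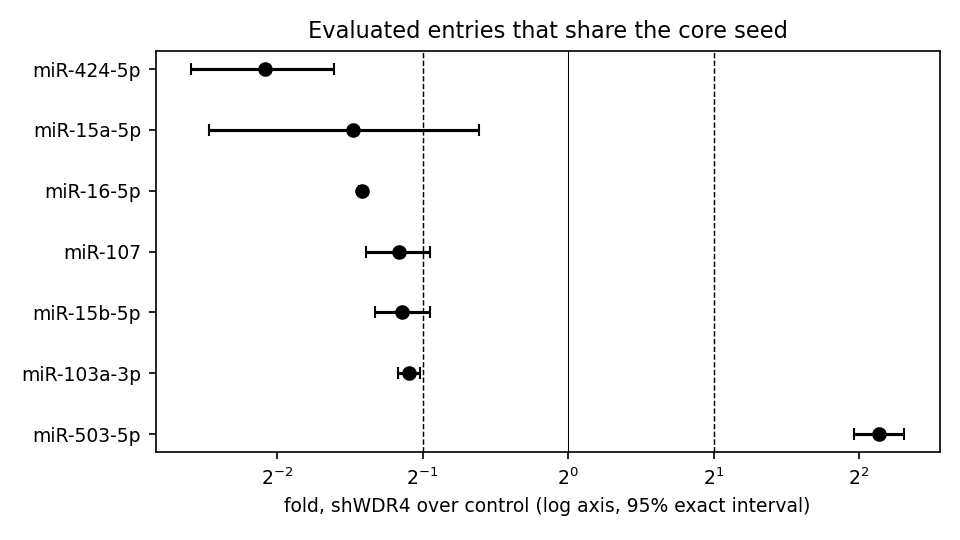
Fold (shWDR4 over control, log axis, exact 95% counting intervals) of the 7 evaluated entries that share the core seed, lowest at the top, with dashed lines at 2-fold and a solid line at no difference. The folds of miR-107 (0.446), miR-15b-5p (0.454) and miR-103a-3p (0.469) lie side by side, and miR-503-5p (4.397) stands alone on the higher side.

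Other miRNAs of roles linked to the family were looked at through lists. For insulin and lipid metabolism, 9 of 13 listed names were among the entries, and the list gave miR-375-3p also as miR-375. Of these 9, 8 were evaluated, of which 6 were at least 2-fold lower and none at least 2-fold higher, with a median log2 fold of -1.42. The background shares are again 31.5% lower and 26.1% higher, with a median of -0.37. The 4 with most counts were miR-29a-3p at 1.53-fold lower (1.46 to 1.599), miR-29b-3p at 2.37-fold (2.15 to 2.61), the liver miRNA miR-122-5p at 3.12-fold (2.796 to 3.49), and the lipid-linked miR-27a-3p, with a value of 2.34-fold (2.03 to 2.69). All 8 were lower under every scaling except that without miR-3960, miR-6126 and miR-7704, where 7 were. With column totals 60.5% of all evaluated entries were lower by any size. The 6 at least 2-fold lower became 4 without miR-3960, 2 without the 3 large entries and 7 with the upper quartile. In the same order, 79, 49 and 151 of all 349 evaluated entries were at least 2-fold lower.

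Another list held miRNAs in introns of paralogous host genes, the arrangement of the PANK introns. Of its 9 members 4 were among the entries and 3 were evaluated, 2 of them at least 2-fold lower, with a median log2 fold of -1.69, against 31.5% and -0.37 over all evaluated entries. In the CTDSP genes, phosphatases of RNA polymerase II, miR-26a-5p had 8220.1 CPM in shWDR4 and 26553 CPM in control, 3.23-fold lower (3.13 to 3.33). Its relative miR-26b-5p was 6.401-fold lower (4.76 to 8.78). The brain-enriched miR-128-3p was 1.36-fold lower (1.19 to 1.56), and without the 3 large entries its direction turned. The fourth, miR-148b-3p, had 0 counts in shWDR4 and 13 in control. The intervals of the 2 CTDSP products do not overlap, whereas those of miR-103a-3p and miR-107 do.

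In other cells p53 raises miR-107 along with its host PANK1, and H1299 cells lack p53. Of 8 listed p53-responsive miRNAs 7 were among the entries and 3 were evaluated, all at least 2-fold lower under each of the 7 scalings. Their median log2 fold was -2.56 with column totals, against 31.5% at least 2-fold lower and a median of -0.37 over all evaluated entries. Of all 349 evaluated entries, 49 were at least 2-fold lower without the 3 large entries and 151 with the upper quartile. The 3 evaluated p53-responsive miRNAs were miR-143-3p at 6.76-fold (5.38 to 8.58), miR-34c-5p at 5.35-fold (3.51 to 8.52) and miR-34a-5p at 5.88-fold (3.33 to 11.3). The fourth by counts, miR-194-5p, had 0 counts in shWDR4 and 12 in control. At 2.24-fold lower (1.93 to 2.62), miR-107 lay closer to no difference than these 3.

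The entries most like the family in this comparison were sought among 109 others with at least 1000 counts, by the distance of their log2 fold to that of the family sum over the 1 pair of pooled columns. The closest were miR-320d and miR-181a-5p, each 2.15-fold lower in shWDR4, at distances of 0.003 and 0.004. They were followed by miR-15b-5p at 0.037, miR-378a-3p at 0.044 and miR-224-5p at 0.061. With 1 fold per entry, such likeness is common and says no more than that the folds are close.

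GC content moved with the fold across the table. In the 311 evaluated entries with a RefSeq sequence, the median GC content was 66.7% in the 82 that were at least 2-fold higher in shWDR4, 57.9% in the 135 within 2-fold and 45.6% in the 94 at least 2-fold lower. The family, at 47.8%, was near the median of the lower entries. Among the 88 entries within 5 percentage points of that GC content, 38.6% were at least 2-fold lower and 12.5% at least 2-fold higher, with a median log2 fold of -0.77. The part of base composition in the result was not tested.

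The summed level of markers of blood, liver, muscle and endothelium was also lower in shWDR4. All 13 listed miRNAs were among the entries and summed to 3210.3 CPM in shWDR4 and 13483 CPM in control. Of the 6 evaluated, which were of blood, liver and endothelium, 5 were at least 2-fold lower with column totals, against 31.5% of all evaluated entries. Without the 3 large entries 3 of the 6 were, against 49 of all 349 evaluated entries. The most abundant of the 6, the endothelial miR-126-3p, was 4.68-fold lower (4.401 to 4.98). The lowest fold was that of the leukocyte miR-142-3p, at 18.1-fold lower (6.01 to 89.1), from 3 counts in shWDR4 and 100 in control. Its other arm, miR-142-5p, had 17 counts in shWDR4 and 54 in control. That arm was 1.72-fold lower, with an interval (0.983 to 3.17) that includes no difference. No muscle marker had enough counts to show a difference. Counts were 3 in shWDR4 and 6 in control for miR-1-3p, 0 in shWDR4 and 3 in control for miR-206, and 0 in shWDR4 and 1 in control for miR-133a-3p. The lymphocyte miR-150-5p had 18 counts in shWDR4 and 24 in control, a fold of 1.38 whose interval (0.708 to 2.66) includes no difference. The red cell marker miR-451a had 3 counts in shWDR4 and 0 in control, too few to show a difference. Of the other listed blood markers, miR-486-5p had 100 counts in shWDR4 and 509 in control, 2.76-fold lower (2.22 to 3.45). Too few to be evaluated were the counts of miR-144-3p, 2 in shWDR4 and 7 in control, and of miR-223-3p, 7 in shWDR4 and 18 in control. Of 5 epithelial markers, miR-200c-3p, miR-141-3p and miR-205-5p were among the entries, summing to 28.9 CPM in shWDR4 and 89.2 CPM in control, and miR-141-3p was at 0 in shWDR4. The part of such markers' sources in the family's values was not tested.

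Target transcripts were not measured in this series. The deposited tables of enriched terms list genes by name, and 13 were looked up there: the PANK hosts and 10 reported targets of miR-103 or miR-107, including DICER1, CAV1 and CDK6. None of them was among the 30 genes listed under the Gene Ontology terms or the 14 under the KEGG terms. The tables do not say how their genes were chosen, so no statement on targeting can be drawn from them.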

How the data were processed

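Exosomal small RNA was sequenced in 6 libraries, 3 per group. Per the file headers, the deposited read counts of the 3 libraries of a group were joined in 1 column per group and not normalized. The submitters' processing notes name Bowtie, SAMtools, Trim Galore, FastQC and edgeR, with no version. The genome build is not given in the sources used here. Deposited log2 folds run as control over shWDR4, as recomputed from the counts, and the deposited q-value served only to describe the authors' marks. Counts were divided by column totals to give CPM, and folds carry exact Clopper-Pearson intervals conditional on the sum of both counts (SciPy 1.17.1), checked on simulated data. Ratios of ratios carry exact conditional odds-ratio intervals. The edgeR 4.0.16 package gave scaling factors only. Where an entry had no count, the limit was set at 3 counts (5.43 CPM in shWDR4, 2.94 CPM in control). Members, lists and settings were chosen with earlier results of these data known. The entries named are the members, up to 4 of each list by total counts, all of the seed group and of the serum references, and the 5 nearest by fold. The markers of other cell types named in the text were chosen after their values were seen. Pairs with shared reads and the GC comparison were chosen after the values were seen. Sequences matched 1115 of 1247 entries.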

Additional observations from a re-analysis of the deposited data

How the results depend on the processing

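No p-value was possible, and folds below are shWDR4 over control. For the family sum, 0.466 with column totals became 0.521 with the trimmed mean of M values, 0.503 with the median ratio, 0.358 with the upper quartile, 0.583 without miR-3960 and 0.738 without miR-3960, miR-6126 and miR-7704. In the same order miR-103a-3p, at 0.469, became 0.524, 0.506, 0.3602, 0.587 and 0.743. For miR-107, at 0.446, the upper quartile gave 0.342, and the totals without 1 or 3 large entries gave 0.557 and 0.706. Counting shared reads once in the totals, chosen after seeing the data, gave 0.452 for the sum. No direction turned, and the ratio of miR-107 to miR-103a-3p stayed at 0.9498 with miR-103b added. The 110 of 349 entries at least 2-fold lower became 49 of 349 without the 3 large entries. With a minimum of 200 counts they became 68 of 208, and with none 219 of 1247. The 91 of 349 at least 2-fold higher became 151 of 501 with a minimum of 20 counts, 48 of 208 with 200 and 402 of 1247 with none. The minimum changes which entries are kept, and with none more entries were higher than lower. The 49 follows from a shift of every log2 fold by 0.66. The setting with 5p arms added gave no value, since neither arm was among the entries. No paired analysis was possible because each group has 1 pooled column, and for the same reason no library could be left out.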

Other observations

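Reads listed under more than one entry also sit in the column totals. With 1 entry kept of each set that had identical counts and identical or reverse-complementary mature sequences in RefSeq, 14 entries were left out. They held 19866 counts, or 3.59% of the shWDR4 column, and 66119 counts, or 6.48% of the control column. Most of these were the reads of miR-423-5p with miR-3184-3p, of miR-7-5p with miR-3529-3p and of miR-103a-3p with miR-103b. Pairs with identical mature sequences, 18 in all among the entries with a RefSeq sequence, had identical counts in each case. Most of them were combinations within a single set that shares its sequence and had 0 counts in shWDR4 and 7 in control. That set was miR-518e-5p, miR-519a-5p, miR-519b-5p, miR-519c-5p, miR-522-5p and miR-523-5p. Of the 18, only miR-365a-3p with miR-365b-3p, at 42 counts in shWDR4 and 35 in control, reached 50 counts. The shared reads took a larger part of the control column than of the shWDR4 column, and counting them once moved the family sum to 2.21-fold lower in shWDR4 (2.101 to 2.33), inside the interval found with the full totals.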
